A study of Mus musculus with 12 samples.

Results

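Collagen genes were examined in the RNA of inguinal white adipose tissue (iWAT), the fat pad in which beige adipocytes form. The members were all genes of the count table whose symbol has the form Col, a type number, the letter a and a chain number, which gave 44 genes of 23420. RNA was sequenced from 12 male C57BL/6 mice aged 10 weeks, 3 in each of 4 groups. WT mice carried HIF2a loxP/loxP alleles without Cre, whereas HIF2α AKO mice carried Adipoq-Cre together with HIF2a loxP/loxP, so that Cre and the targeted deletion always occurred together. In both genotypes 1 group was held at 30 °C for 1 week (thermoneutral, TN) and another at 4 to 6 °C for 3 days (cold). Adiponectin promoter-driven Cre acts in adipocytes, so fibroblasts, vessels and immune cells of the same tissue keep an intact Hif2a gene. In whole tissue, fewer cells of a type and less RNA per cell cannot be told apart.

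Collagens are trimeric extracellular proteins, and each gene encodes 1 kind of chain. Fibrillar collagens such as types I, III and V assemble into the fibrils of the interstitial matrix and are made mostly by fibroblasts and progenitor cells. Type IV collagen forms the network of basement membranes, the sheets that surround every adipocyte and capillary, and types XV and XVIII are attached to these sheets. The other collagens include the beaded filaments of type VI, which lie at the surface of adipocytes, the fibril-associated collagens (FACITs), the short-chain network formers and the transmembrane collagens. The 44 genes were divided accordingly into 11 fibrillar, 8 basement membrane and 25 other collagens. One edgeR fit covered the 12 libraries, and a gene was said to rise or fall where its p-value, adjusted over the 15306 genes that passed a filter on low counts, was under 0.05. Of the collagens, 40 passed this filter, namely 10 fibrillar, 8 basement membrane and 22 other collagens. Col2a1, Col9a1, Col19a1 and Col25a1 had between 12 and 75 reads in total over all libraries and were not tested.

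Values are given as CPM (counts scaled to a common library size by TMM), and library totals over genes ranged from 22368316 to 35204631 counts. Epas1, which encodes HIF2α, served as the check of the genotype labels. It measured 360 ± 76.8 CPM in TN WT, 348 ± 53.8 in TN HIF2α AKO, 627 ± 101 in cold WT and 826 ± 139 in cold HIF2α AKO (SD, n = 3), so libraries labelled HIF2α AKO did not hold less of it, and genotypes are given here as labelled. A count over all exons is a weak check of a deletion that may remove part of the gene in 1 cell type. Adipocyte markers were abundant in every library, with 5 genes (Adipoq, Plin1, Fabp4, Cidec and Lep) summing to between 3929 and 26125 CPM. The third TN WT library held a sum of 231 CPM of 8 epithelial markers, against 2.95 to 10.6 CPM elsewhere. The first cold HIF2α AKO library and the second TN HIF2α AKO library held 1159 and 1422 CPM of 8 skeletal muscle markers, against 10.1 to 84.4 CPM elsewhere. The collagens called in a contrast, or else the 3 with the lowest p, were also fitted without these libraries. Class sums, chain ratios, cell type markers and the synthesis and receptor genes are given with all libraries only.

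Promoter windows reaching from 250 bases before to 50 bases after the transcription start were available from RefSeq (GRCm38.p6) for 35 of the 44 collagens. Printed are the 150 bases before the start of Col10a1, the collagen with the largest rise in cold, at chr10:34389831-34389980 on the + strand, and of Col3a1, the most abundant collagen, at chr1:45311388-45311537 on the + strand. Neither stretch overlaps an annotated exon. The letters TATAAA, the core of a TATA box, are in capitals.
Col10a1: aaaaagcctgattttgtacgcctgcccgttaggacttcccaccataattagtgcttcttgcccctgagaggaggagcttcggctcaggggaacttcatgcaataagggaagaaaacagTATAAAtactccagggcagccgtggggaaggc
Col3a1: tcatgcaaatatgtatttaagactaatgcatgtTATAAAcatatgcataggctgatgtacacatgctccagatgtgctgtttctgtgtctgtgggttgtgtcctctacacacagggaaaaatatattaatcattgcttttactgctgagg
The match began 32 bases before the start in Col10a1 and 117 bases before it in Col3a1. TATAAA, searched on both strands, stood in the windows of 5 of the 35 collagens (14.3%) and in 13.6% of all 32851 windows. A collagen was counted where any of its windows held the letters, whereas all windows were counted singly. The shares given here are therefore not strictly like for like. The letters GGGCGG, read by Sp-family factors, stood in the windows of 22 of the 35 collagens (62.9%) and in 35.7% of all windows, and CCAAT stood in 37.1% and 37.4%. The core of the sequence bound by HIF was searched in both of its forms. The first, ACGTG, stood in 5 collagen windows (14.3%) and in 19.6% of all windows, and the other, GCGTG, stood in 10 collagen windows (28.6%) and in 32.4% of all windows, those of Col10a1, Col4a1 and Col4a2 among the 10. The 5 with ACGTG were Col1a2, Col4a4, Col5a1, Col6a6 and Col11a2.

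Col4a1 and Col4a2, which encode the 2 chains of the most common type IV collagen, lie head to head on chromosome 8. Col4a1 runs on the - strand (chr8:11198423-11312826) and Col4a2 on the + strand (chr8:11312805-11449287), so that their exons share 22 bases. The shared stretch, chr8:11312805-11312826, is given on the + strand, with GGGCGG in capitals.
Col4a1 and Col4a2: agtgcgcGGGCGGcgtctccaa
Their exons overlap in this stretch alone. Among the other members, 3 share exonic bases with a further gene of the count table, namely Col10a1 (18 bases with Nt5dc1, opposite strand), Col9a3 (234 bases with Tcfl5, opposite strand) and Col7a1 (36 bases with Mir711, same strand). The strand setting of the counting is not given in the sources used here, and reads from such stretches cannot be assigned to 1 strand.

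The level of each collagen was compared per kilobase of its longest coding transcript, because chains differ in length. Both this length and the union of exons were tried, and the choice was made after the values were seen. Col3a1, the chain of type III collagen, was the highest at 409 CPM per kb on average over the 12 libraries, followed by Col1a2 at 213, Col4a1 at 170, Col1a1 at 163 and Col4a2 at 120 CPM per kb. These 5 genes made up 68.1% of the summed collagen level per length. Next came the type VI chains Col6a1 and Col6a2 at 111 and 86.6 CPM per kb, Col15a1 at 73.0, Col5a3 at 57.1 and Col6a3 at 46.4. The order of close neighbours depends on the length used. With the union of all exons in place of the coding transcript, Col1a2 moved from place 2 to place 6, and Col3a1 remained the highest. Of the 40 tested collagens, 13 stood at 10 CPM per kb or more, 13 between 1 and 10, and 14 below 1.

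Cold-exposed iWAT held less collagen RNA than thermoneutral iWAT, with most of the difference in the fibrillar class. The 44 genes took 1.24 ± 0.019% of the counts in TN WT and 1.14 ± 0.096% in TN HIF2α AKO, against 0.710 ± 0.090% in cold WT and 0.678 ± 0.070% in cold HIF2α AKO (SD, n = 3). After TMM scaling, which the class sums below use, the total was 11006 ± 469 and 7761 ± 1019 CPM in TN and cold WT. In HIF2α AKO libraries it was 10566 ± 951 CPM at TN and 7545 ± 443 CPM in cold. The fibrillar sum was 7033 ± 136 CPM in TN WT and 3998 ± 781 CPM in cold WT, and 6452 ± 1097 CPM in TN HIF2α AKO and 3587 ± 399 CPM in cold HIF2α AKO. Thermoneutral and cold libraries did not overlap in this sum in either genotype. The basement membrane sum was 2285 ± 549 and 2444 ± 414 CPM in TN and cold WT, and 2439 ± 522 and 2574 ± 264 CPM in TN and cold HIF2α AKO, differences smaller than the spread between mice. Their direction depended on the measure. As a share of unscaled counts this class was lower in cold, at 0.255 ± 0.047% and 0.222 ± 0.017% in TN and cold WT. In TN and cold HIF2α AKO it was 0.262 ± 0.044% and 0.231 ± 0.024%. The other collagens summed to 1687 ± 33.4 and 1319 ± 113 CPM in TN and cold WT, without overlap, and to 1675 ± 178 and 1384 ± 173 CPM in TN and cold HIF2α AKO, where they overlapped. Summed levels per length therefore shifted in make-up, with fibrillar chains accounting for 64.6 ± 3.76% of collagen CPM per kb in TN WT and 51.9 ± 4.32% in cold WT. For HIF2α AKO libraries this share was 61.7 ± 7.40% at TN and 48.1 ± 2.76% in cold. The share of basement membrane chains was 19.3 ± 3.94% in TN WT, 29.7 ± 4.24% in cold WT, 21.7 ± 5.22% in TN HIF2α AKO and 32.3 ± 4.09% in cold HIF2α AKO. No test was made on these sums, since with 3 mice a group the lowest exact permutation p is 0.1.

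**Figure D1:**
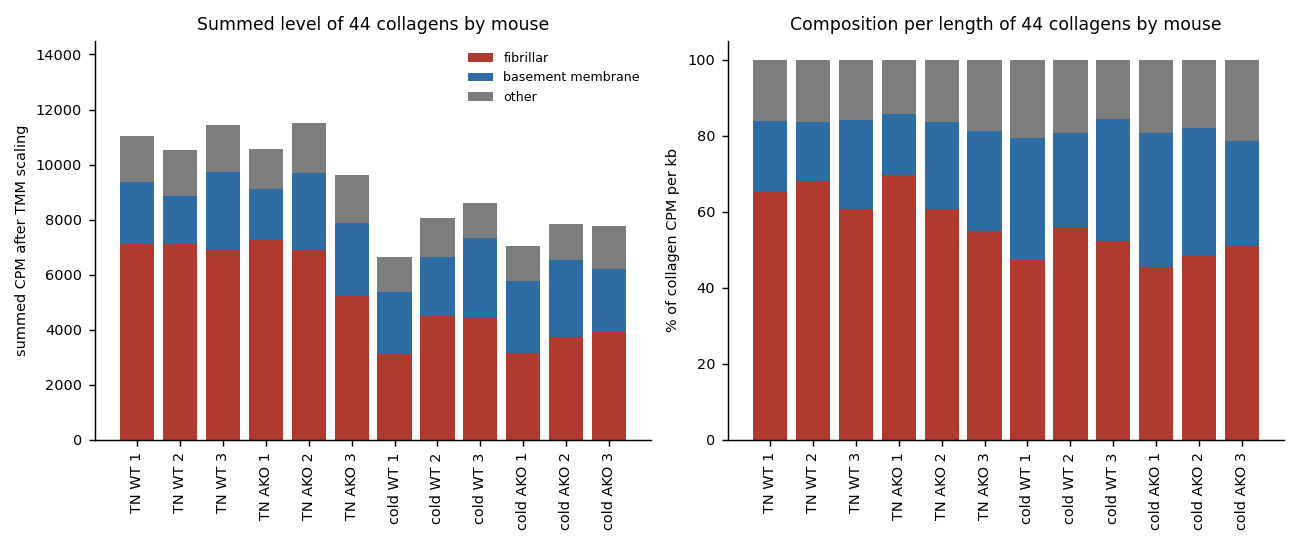
Left, summed CPM of the 44 collagens in each of the 12 libraries, stacked by class; right, the same libraries as a percentage of the summed CPM per kb. Fibrillar chains (red) sum to between 5203 and 7260 CPM in the 6 TN libraries and between 3097 and 4487 CPM in the 6 cold libraries, whereas basement membrane chains (blue) sum to between 1757 and 2914 CPM over all 12.

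Gene by gene, 8 collagens fell and 1 rose in cold WT against TN WT. The share that fell, 8 of 40, compares with 5.68% of all 15306 genes, and the share that rose compares with 15.6%. By class, 4 of 10 fibrillar, 1 of 8 basement membrane and 3 of 22 other collagens fell. Among HIF2α AKO mice 7 collagens fell (11.5% of all genes did) and 2 rose (15.6% of all genes did), of which 4 falls and 1 rise were fibrillar and none was a basement membrane collagen. Col1a1, Col1a2, Col3a1, Col5a2 and Col16a1 fell in both genotypes in comparisons that share no library. Both comparisons came from the same fit over the 12 libraries, with a common scaling, filter and estimate of the spread. With edgeR on the 6 libraries compared, Col1a2 in WT (adjusted p = 0.058) and Col5a2 in HIF2α AKO mice (adjusted p = 0.078) lost their calls. The rise in WT and 1 of the 2 rises in HIF2α AKO mice were those of Col10a1, which passed the filter on low counts through its cold libraries alone, so its calls are not counted as support. The 8 falls in WT include Col9a2 and Col22a1, which passed the filter mainly through TN libraries, so these 2 are not counted as support either. Cold and thermoneutral libraries did not overlap for 14 collagens that were lower in cold WT (19.3% of all genes) and 1 that was higher (22.7%). For HIF2α AKO mice the counts were 16 lower (25.6%) and 4 higher (24.9%). At an unadjusted p under 0.05, 20 collagens in WT and 15 in HIF2α AKO mice differed in either direction, beside 38.9% and 42.7% of all genes. An unadjusted p under 0.15 with a log2 fold change beyond 0.2 took in 25 and 24 collagens, beside 52.5% and 54.6% of all genes.

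The median log2 fold change of the 40 collagens was -0.42 in WT and -0.29 in HIF2α AKO mice, beside -0.03 and -0.05 over all genes. It was -0.36 and -0.27 for the fibrillar class, -0.07 and -0.004 for basement membrane collagens and -0.45 and -0.36 for the others. In both comparisons 4 of the 8 basement membrane collagens had a positive and 4 a negative log2 fold change. The direction of change was the same in both genotypes for 34 of 40 collagens, 27 of them lower in cold, whereas 85.2% of all genes had the same direction.

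Col3a1 measured 3176, 3175 and 3017 CPM in the 3 TN WT libraries and 1264, 1896 and 1714 CPM in cold WT. Every cold library lay below every thermoneutral one, and the log2 fold change was -0.94 (SE 0.20; adjusted p = 0.0088). In HIF2α AKO libraries Col3a1 measured 3099, 3049 and 2256 CPM at TN and 1330, 1593 and 1713 CPM in cold, which gave a log2 fold change of -0.86 (SE 0.20; adjusted p = 0.012). Type III collagen forms thin fibrils together with type I in soft, distensible tissue.

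Type I collagen, the main load-bearing fibril of connective tissue, is built from chains of Col1a1 and Col1a2. Col1a1 measured 1408, 1411 and 1277 CPM in TN WT and 502, 816 and 787 CPM in cold WT. The log2 fold change was -0.96 (SE 0.24; adjusted p = 0.017). With HIF2α AKO labels it measured 1601, 1302 and 914 CPM at TN and 445, 535 and 618 CPM in cold, which gave a log2 fold change of -1.26 (SE 0.24; adjusted p = 0.0044). The lowest thermoneutral library was thus above the highest cold one in both genotypes. Col1a2 measured 1594, 1623 and 1323 CPM in TN WT and 660, 1008 and 933 CPM in cold WT (log2 fold change -0.80, SE 0.22; adjusted p = 0.026). At TN and in cold, HIF2α AKO libraries held 1775, 1509 and 1056 CPM and 639, 713 and 819 CPM of Col1a2 (log2 fold change -1.0, SE 0.22; adjusted p = 0.0092).

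Col5a2 encodes a chain of type V collagen, which sits inside type I fibrils and regulates their diameter, and its gene is the neighbour of Col3a1 on chromosome 1 (chr1:45374321-45503282, - strand). It measured 266, 258 and 291 CPM in TN WT and 190, 198 and 199 CPM in cold WT, a smaller fall of -0.47 on the log2 scale (SE 0.10; adjusted p = 0.010). The HIF2α AKO libraries held 240, 285 and 236 CPM of Col5a2 at TN and 186, 216 and 200 CPM in cold (log2 fold change -0.34, SE 0.10; adjusted p = 0.035). Its partner chains did not pass the limit. Col5a1 had log2 fold changes of -0.33 (adjusted p = 0.10) and -0.37 (adjusted p = 0.064) in WT and HIF2α AKO mice, and Col5a3, which varied from 233 to 616 CPM among libraries, had -0.39 and -0.20 (adjusted p = 0.40 and 0.66).

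A fibrillar collagen that went the other way was Col27a1, best known from cartilage. It measured 30.0, 32.2 and 31.6 CPM in TN HIF2α AKO and 55.5, 42.4 and 47.5 CPM in cold HIF2α AKO, a rise of 0.63 on the log2 scale (SE 0.13; adjusted p = 0.0064). In WT it measured 32.2, 34.1 and 27.2 CPM at TN and 33.7, 42.2 and 43.7 CPM in cold, where the ranges overlapped and the log2 fold change was 0.36 (SE 0.13; adjusted p = 0.070). The difference between these effects was not significant (0.28, SE 0.18, unadjusted p = 0.16, adjusted p = 1.00). The remaining fibrillar collagens, Col11a1, Col11a2 and Col24a1, stood below 1.5 CPM per kb and did not pass the limit in either genotype.

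**Figure D2:**
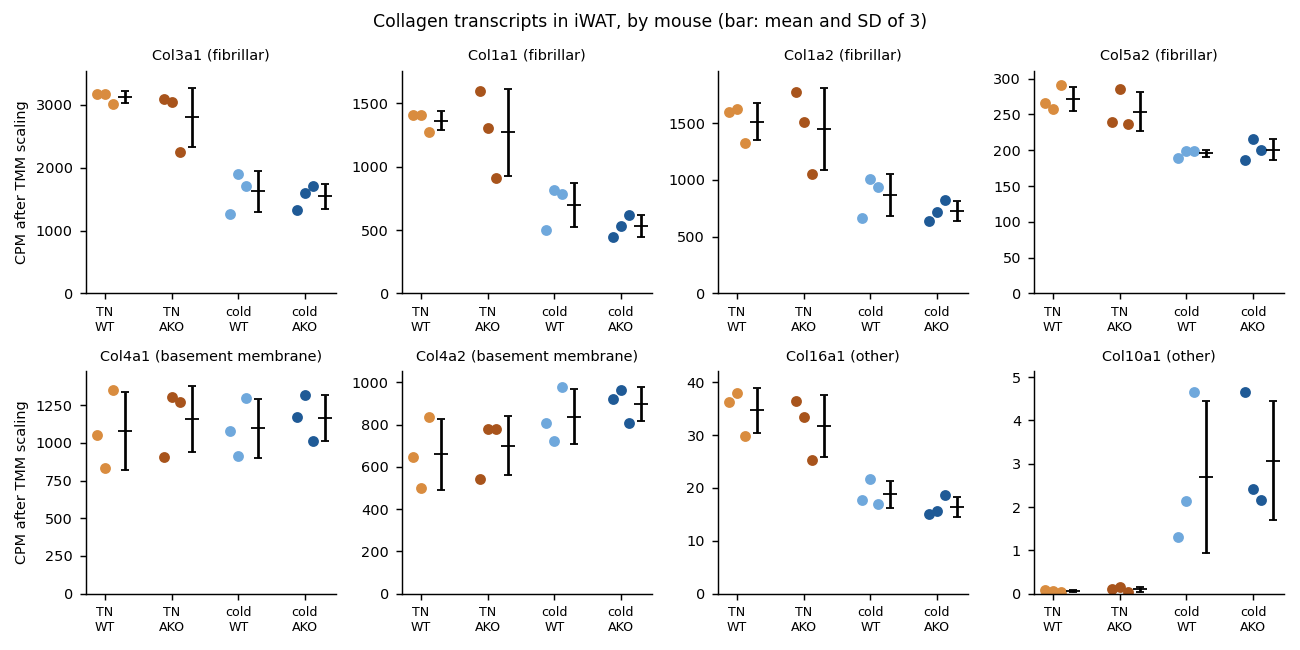
CPM after TMM scaling of 8 collagens, with a point for each mouse and a bar for the mean and SD of 3, by temperature and genotype. Col3a1, Col1a1, Col1a2, Col5a2 and Col16a1 are lower in every cold library than in every TN library of the same genotype, Col10a1 is higher, and Col4a1 overlaps between temperatures.

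Basement membrane collagens gave another picture. Col4a1 measured 1053, 834 and 1348 CPM in TN WT and 1081, 912 and 1300 CPM in cold WT, and the ranges of the groups lay within each other. Its log2 fold change was 0.03 in WT, with a 95% interval from -0.45 to 0.51, and 0.01 in HIF2α AKO mice (-0.47 to 0.49). The mean cold fall of Col1a1 and of Col3a1 lay outside these intervals. The 95% intervals of Col1a1 in WT (-1.48 to -0.44) and of Col3a1 in HIF2α AKO mice (-1.30 to -0.42) nevertheless overlapped them. Those of Col3a1 in WT (-1.38 to -0.50) and of Col1a1 in HIF2α AKO mice (-1.78 to -0.73) did not. No test between genes was made. Col4a2 measured 646, 499 and 835 CPM in TN WT and 810, 722 and 979 CPM in cold WT, and 541, 782 and 780 CPM in TN HIF2α AKO against 921, 966 and 807 CPM in cold HIF2α AKO. Cold libraries were all higher than thermoneutral ones in HIF2α AKO mice alone, and the log2 fold changes of 0.34 and 0.36 did not pass the test (SE 0.21 in both; adjusted p = 0.24 and 0.21).

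The other abundant members of this class likewise gave no call. Col15a1, which encodes the core of a proteoglycan at the outer face of basement membranes, had log2 fold changes of -0.17 and -0.02 (adjusted p = 0.70 and 0.97). Col18a1, the source of the fragment endostatin, measured 149, 117 and 132 CPM in TN WT and 107, 109 and 231 CPM in cold WT, so that the third cold WT library stood apart. The HIF2α AKO libraries held 164, 204 and 144 CPM of it at TN and 99.5, 110 and 117 CPM in cold. These did not overlap, but the log2 fold change of -0.65 (SE 0.26) had an adjusted p of 0.087.

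Col4a5, a minor type IV chain, was the exception in WT. It measured 13.3, 16.5 and 16.6 CPM in TN WT and 5.91, 9.48 and 8.29 CPM in cold WT (log2 fold change -0.97, SE 0.19; adjusted p = 0.0056). In HIF2α AKO mice the values were 12.3, 13.3 and 10.7 CPM at TN and 9.83, 8.0 and 7.21 CPM in cold (log2 fold change -0.54, SE 0.19; adjusted p = 0.051), and the difference between the genotypes had an unadjusted p of 0.13. Col4a3 and Col4a4, which pair with Col4a5 in the basement membranes of some organs, stood at 0.269 and 0.320 CPM per kb and gave no call. Col4a6 measured 8.94 CPM in the third TN WT library and between 0.636 and 1.16 CPM in all others. That library also held the raised epithelial markers, whose part in the value was not tested.

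**Figure D3:**
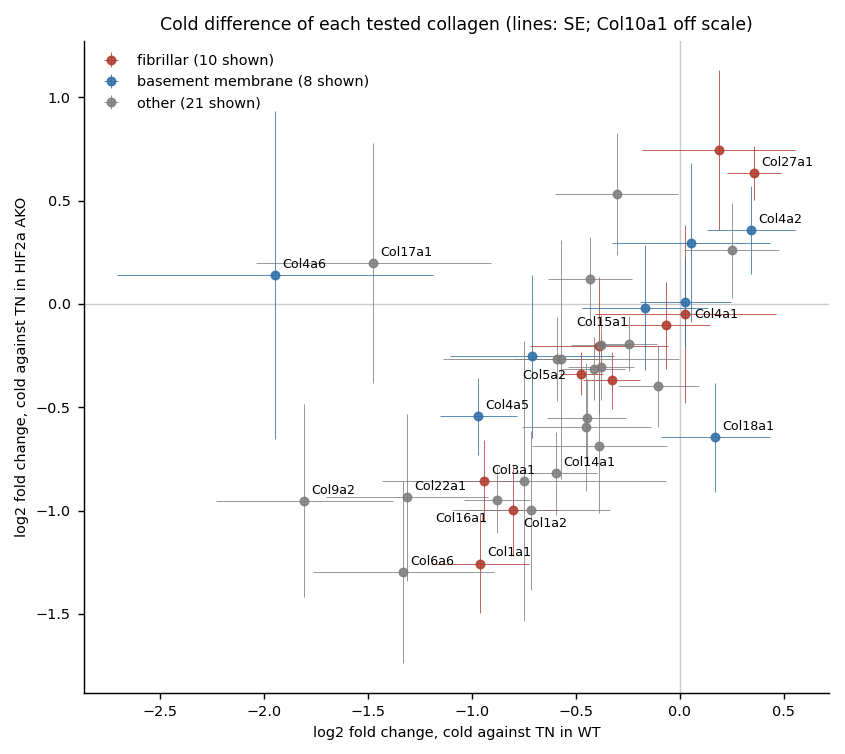
Log2 fold change in cold against TN for 39 tested collagens, in WT (x axis) and in HIF2α AKO mice (y axis), with lines for the SE and colours for the class; Col10a1 lies off the scale. Fibrillar genes (red) reach down to -0.96 and -1.26, whereas of the 4 most abundant basement membrane genes (blue) Col4a1, Col4a2 and Col15a1 lie between -0.17 and 0.36 and Col18a1 lies at 0.17 and -0.65.

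The 2 chains of type IV collagen nevertheless shifted against each other. The ratio of Col4a1 to Col4a2, each as CPM per kb, was 1.59, 1.63 and 1.57 in TN WT and 1.3, 1.23 and 1.29 in cold WT. The HIF2α AKO libraries gave 1.63, 1.62 and 1.59 at TN and 1.24, 1.33 and 1.22 in cold. All 6 thermoneutral libraries lay at or above 1.57 and all 6 cold libraries at or below 1.33, although the levels of either chain overlapped between temperatures in WT. The SD of the ratio within a group was between 0.025 and 0.057. The ratio of Col1a1 to Col1a2 also did not overlap between temperatures, with a mean of 0.817 ± 0.047 in TN WT and 0.725 ± 0.037 in cold WT, and 0.791 ± 0.020 and 0.662 ± 0.029 in TN and cold HIF2α AKO. The ratio of Col6a1 to Col6a2 overlapped in both genotypes, at 1.24 ± 0.084 and 1.36 ± 0.081 in TN and cold WT, and at 1.27 ± 0.069 and 1.27 ± 0.058 in TN and cold HIF2α AKO. For Col4a1 per Col4a2 and Col1a1 per Col1a2 the two-sided exact permutation test gave p = 0.1 in each genotype, the smallest that n = 3 a group allows, so neither could pass a limit of 0.05. Of the 10 ratios computed, 4 were separate in both genotypes, and the ratios described were picked after their values were seen. The size of a ratio depends on the transcript lengths used, whereas its relation between groups does not.

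**Figure D4:**
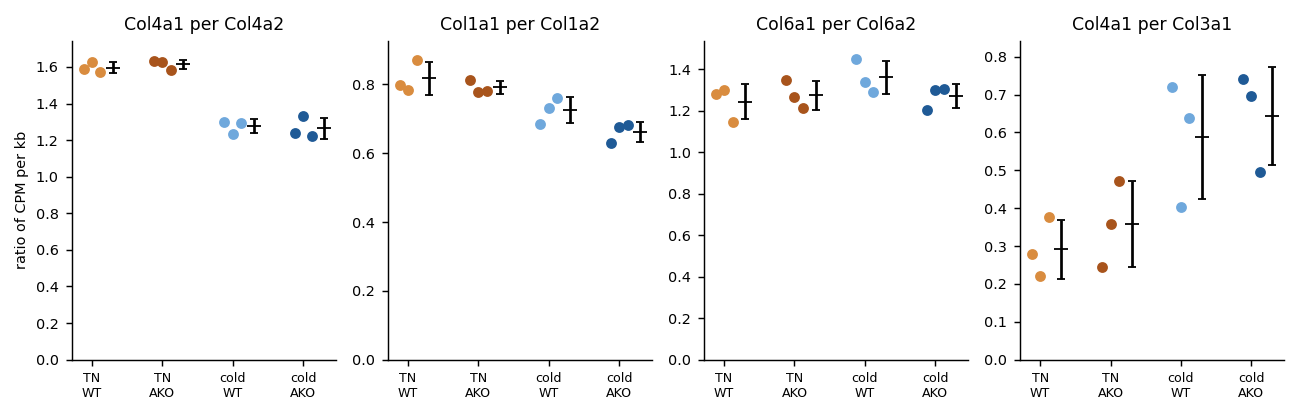
Ratio of CPM per kb of 2 collagen chains in each mouse (points) with the mean and SD of 3 (bars), by temperature and genotype. Col4a1 per Col4a2 lies between 1.57 and 1.63 in TN libraries and between 1.22 and 1.33 in cold libraries, and Col4a1 per Col3a1 rises from means of 0.292 and 0.359 at TN to 0.587 and 0.644 in cold.

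Across classes, Col4a1 per Col3a1 was 0.292 ± 0.078 in TN WT and 0.587 ± 0.164 in cold WT, and 0.359 ± 0.113 and 0.644 ± 0.13 in TN and cold HIF2α AKO. The WT libraries ranged from 0.221 to 0.376 at TN and from 0.404 to 0.720 in cold, and the HIF2α AKO libraries from 0.246 to 0.473 and from 0.497 to 0.741, so that temperatures did not overlap in either genotype.

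Among the other collagens, the beaded filament chains of type VI were the most abundant, and all 6 tested had negative log2 fold changes in cold in both genotypes. Col6a1 measured 505, 480 and 500 CPM in TN WT and 415, 466 and 373 CPM in cold WT (log2 fold change -0.25, SE 0.13; adjusted p = 0.19), and Col6a2 and Col6a3 had -0.38 each (adjusted p = 0.079 and 0.10). In HIF2α AKO mice these 3 chains had log2 fold changes of -0.19, -0.20 and -0.31 (adjusted p between 0.16 and 0.31). Col6a6, a chain that can take the place of Col6a3, measured 9.62, 13 and 7.81 CPM in TN HIF2α AKO and 4.07, 3.50 and 4.81 CPM in cold HIF2α AKO. It fell by 1.3 on the log2 scale (SE 0.44), close to the limit at an adjusted p of 0.049, and had -1.33 in WT (SE 0.44; adjusted p = 0.051).

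The FACITs, which decorate the surface of fibrils, had a median log2 fold change of -0.60 in WT and -0.82 in HIF2α AKO mice over 7 tested genes. Col16a1 fell in both genotypes, from 36.2, 37.9 and 29.9 CPM in TN WT to 17.7, 21.7 and 17.0 CPM in cold WT (log2 fold change -0.88, SE 0.16; adjusted p = 0.0041). The HIF2α AKO libraries went from 36.5, 33.4 and 25.2 CPM to 15, 15.7 and 18.6 CPM (log2 fold change -0.95, SE 0.16; adjusted p = 0.0022). No cold library reached the lowest thermoneutral library in either genotype. Col14a1, a fibril-bound collagen of soft connective tissue, fell in HIF2α AKO mice from 90.6, 75.0 and 65.5 CPM to 41.5, 45.0 and 44.3 CPM (log2 fold change -0.82, SE 0.20; adjusted p = 0.014). In WT it measured 77.9, 86.1 and 49.8 CPM at TN and 44.8, 56.8 and 40.0 CPM in cold, where the groups overlapped (log2 fold change -0.60, SE 0.20; adjusted p = 0.053). Col9a2 and Col22a1 fell in WT, with log2 fold changes of -1.81 (SE 0.42; adjusted p = 0.014) and -1.31 (SE 0.39; adjusted p = 0.037), at levels of at most 1.60 CPM in any library. They reached the limit of the filter on low counts in 5 and 6 TN libraries and in 1 cold library each, so that their place among the tested genes rests mainly on TN libraries. These calls are therefore not counted as support. Without the third cold WT library neither passed the limit (Col9a2 -1.56, adjusted p = 0.068; Col22a1 -1.11). For HIF2α AKO mice the values were -0.95 and -0.94 (adjusted p = 0.14 and 0.10). Col9a3, the tested partner of Col9a2, had -0.45 and -0.60 (adjusted p = 0.29 and 0.16), and shares exonic bases with Tcfl5.

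Col10a1, a short-chain collagen known from hypertrophic cartilage, showed the largest cold rise of all collagens from a very low level. It had 3, 2 and 1 reads in the TN WT libraries and 29, 50 and 116 in cold WT, and 3, 5 and 1 reads in TN HIF2α AKO against 96, 60 and 54 in cold HIF2α AKO. In CPM, all TN libraries lay at or below 0.157 and all cold libraries between 1.3 and 4.67, without overlap. The 6 cold libraries reached the limit of the filter on low counts and 0 of the 6 TN libraries did, so that Col10a1 was among the tested genes because it was high in cold. The ratio of cold to TN reads, per library size after TMM scaling, was 45.0 in WT and 28.4 in HIF2α AKO mice. The exact 95% counting intervals ran from 20.3 to 124 in WT and from 14.7 to 63.0 in HIF2α AKO mice. These intervals cover counting error alone and not the spread between mice. No p-value is given for Col10a1 because of its dependence on the filter. Nt5dc1, the antisense gene with which Col10a1 shares 18 exonic bases, stood between 18.3 and 31.2 CPM in all libraries and had log2 fold changes of 0.29 (adjusted p = 0.12) and 0.42 (adjusted p = 0.036). Its part in the reads of Col10a1 was not tested. The other short-chain genes, Col8a1 and Col8a2, gave no call.

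Genes that modify, crosslink and sense collagen were also compared between cold and TN. Of 17 tested hydroxylases and chaperones, which modify and fold the chains in the endoplasmic reticulum, Plod1, a lysyl hydroxylase, rose in cold WT (log2 fold change 0.49, SE 0.14; adjusted p = 0.028). In HIF2α AKO mice Leprel2, a prolyl 3-hydroxylase, fell (log2 fold change -0.55, SE 0.13; adjusted p = 0.013). These were the only calls of this list by edgeR (15.6% of all genes rose in WT and 11.5% fell in HIF2α AKO mice), with 5 and 2 genes at an unadjusted p under 0.05 (38.9% and 42.7% of all genes). The median of this list was -0.10 and -0.03 in WT and HIF2α AKO mice. Of 12 tested genes for processing and crosslinking, Loxl1, a lysyl oxidase that is best known for crosslinking elastin, rose in both genotypes (log2 fold changes 0.79 and 0.67, SE 0.16 in both; adjusted p = 0.0079 and 0.014). Adamts14, a procollagen N-proteinase, fell in HIF2α AKO mice (log2 fold change -0.50, SE 0.15; adjusted p = 0.035), and the list medians were -0.18 and -0.32. Of these 12 genes, 1 rose in WT (15.6% of all genes), and 1 rose and 1 fell in HIF2α AKO mice (15.6% and 11.5%). At an unadjusted p under 0.05 by edgeR, 2 in WT and 5 in HIF2α AKO mice differed (38.9% and 42.7% of all genes).

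Of 9 tested collagen receptors, Itga2, the alpha chain of an integrin for fibrillar collagen, fell in cold WT (log2 fold change -0.83, SE 0.25; adjusted p = 0.040). In HIF2α AKO mice Itga10 fell by 0.59 (SE 0.16; adjusted p = 0.020) and Ddr2, a receptor tyrosine kinase for fibrillar collagen, fell by 0.49 on the log2 scale (SE 0.15; adjusted p = 0.035). Itga1, the alpha chain of an integrin that prefers type IV collagen, rose (0.38, SE 0.13; adjusted p = 0.044). The receptor medians were -0.17 and -0.29. Of the 9, 1 fell in WT (5.68% of all genes), and 2 fell and 1 rose in HIF2α AKO mice (11.5% and 15.6%). At an unadjusted p under 0.05 by edgeR, 1 in WT and 5 in HIF2α AKO mice differed (38.9% and 42.7% of all genes). The cold response did not differ significantly between genotypes for Itga1, Itga2, Itga10 and Ddr2. The lowest unadjusted p of the edgeR interaction among these 4 was 0.14, for Itga1.

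Markers of other cell types are given beside these changes. The summed level of 8 fibroblast and progenitor markers ranged from 1757 to 2322 CPM in TN WT and from 1599 to 1797 CPM in cold WT, which overlapped, and from 2021 to 2505 CPM in TN against 1450 to 1627 CPM in cold HIF2α AKO, which did not. All 8 had a negative log2 fold change in cold in both genotypes, with 1 fall in WT (Fbn1; 5.68% of all genes fell) and 4 in HIF2α AKO mice (Dcn, Dpp4, Fbn1 and Ly6a; 11.5% of all genes fell), and their medians were -0.40 and -0.57. The sum of 6 endothelial markers lay between 786 and 1015 CPM in TN WT and between 969 and 1080 CPM in cold WT, which overlapped. It lay between 822 and 946 CPM in TN and 1033 and 1126 CPM in cold HIF2α AKO, which did not. By edgeR 0 of the 6 were called in either genotype, with 1 in WT and 2 in HIF2α AKO mice at an unadjusted p under 0.05 (38.9% and 42.7% of all genes). The sum of 6 mural and smooth muscle markers ranged from 378 to 600 CPM in TN WT and from 538 to 641 CPM in cold WT, which overlapped. It ranged from 387 to 544 CPM in TN and from 610 to 650 CPM in cold HIF2α AKO, which did not. Of these markers 0 rose (15.6% of all genes in each) and 0 fell (5.68% and 11.5%). The sum of 5 macrophage markers ranged from 1245 to 2300 CPM in TN WT and from 982 to 1976 CPM in cold WT, and from 1995 to 2217 CPM in TN against 1116 to 1351 CPM in cold HIF2α AKO, without overlap in the latter. All 5 had a negative log2 fold change in HIF2α AKO mice, with a median of -0.76. There Mrc1 fell (11.5% of all genes fell) and 4 had an unadjusted p under 0.05 by edgeR (42.7% of all genes). In WT the median was -0.13. Adipocyte markers summed to between 3929 and 10601 CPM at TN and between 13240 and 26125 CPM in cold. Of the 5, only Fabp4 and Cidec rose in WT and Fabp4 in HIF2α AKO mice (15.6% of all genes rose in each). Adipoq had log2 fold changes of 0.43 and -0.01 (adjusted p = 0.35 and 0.99). Of 8 thermogenic markers, 7 rose in WT and 8 in HIF2α AKO mice (15.6% of all genes rose in each). Of 5 Schwann cell markers, 2 rose in WT and 1 in HIF2α AKO mice, beside the same share of all genes. The part of these markers in the fall of fibrillar collagens was not tested.

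Several fibrillar calls were lost when libraries were left out. Without the second TN HIF2α AKO, the first cold HIF2α AKO and the third TN WT libraries, 4 collagens were called in cold against TN in HIF2α AKO mice, namely Col10a1, Col14a1, Col16a1 and Col27a1. Col1a1 then had a log2 fold change of -1.13 with an adjusted p of 0.053, Col1a2 one of -0.89 with an adjusted p of 0.079, Col3a1 one of -0.70 with an adjusted p of 0.11 and Col5a2 one of -0.19 with an adjusted p of 0.26. With all libraries Col1a1, Col1a2, Col3a1 and Col5a2 had log2 fold changes of -1.26, -1.0, -0.86 and -0.34, so each kept its direction. Both HIF2α AKO groups held fewer mice in the reduced fit, and the share of all genes called in it was not counted. Whether the calls were lost through the muscle or epithelial content of these libraries or through fewer mice was not tested. Leaving out the first cold HIF2α AKO library alone left 5 calls. In WT, 10 collagens were called without these libraries, among them Col1a1, Col1a2, Col3a1 and Col5a2, whereas Col9a2 (adjusted p = 0.055) and Col22a1 (0.063) were lost.

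Comparing the genotypes as labelled gave 0 calls among the 40 collagens by edgeR, DESeq2 and limma-voom. Cre and the deletion occurred together, and Epas1 was not lower in HIF2α AKO libraries. Whether collagen RNA depends on HIF2α in adipocytes was therefore not tested as such. In cold, 0 passed the adjusted limit (0.00653% of all genes did), 1 had an unadjusted p under 0.05 (2.95% of all genes), and 1 did not overlap between genotypes (7.53% of all genes). At TN the counts were 0 (0.00653%), 3 (2.91%) and 2 (7.69%). The single gene called genome-wide was Zfp949 in both comparisons, named here because the count was 1. The median log2 fold change of HIF2α AKO against WT over the 40 collagens was 0.004 in cold and -0.07 at TN, beside -0.02 and 0.01 over all genes. By class it was -0.08, 0.08 and 0.004 in cold, and -0.08, -0.14 and -0.06 at TN, for fibrillar, basement membrane and other collagens.

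The 12 collagens that were the most abundant of their classes, 4 in each, had log2 fold changes of HIF2α AKO against WT between -0.46 and 0.16 in cold and between -0.27 and 0.36 at TN. Their 95% intervals reached at most from -1.04 to 0.82 in cold and from -1.0 to 0.94 at TN, so that changes within these bounds are not excluded at 3 mice per group. For Col6a1 the interval ran from -0.28 to 0.31 in cold, and for Col3a1 from -0.51 to 0.36. Col1a1 was lower in cold HIF2α AKO libraries on average (533 ± 86.2 CPM, against 702 ± 174 CPM in cold WT; log2 fold change -0.40, SE 0.23, unadjusted p = 0.12, adjusted p = 1.00), and the groups overlapped.

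**Figure D5:**
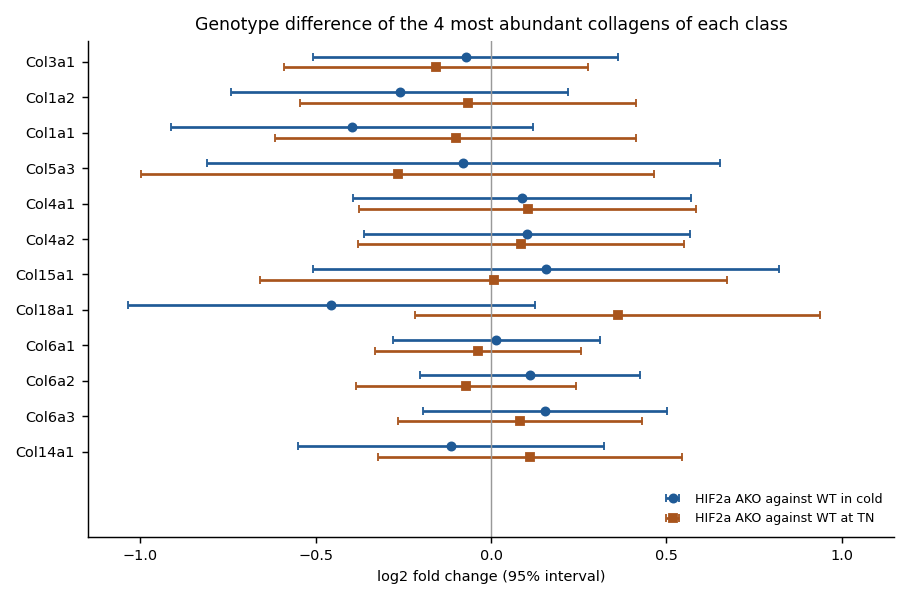
Log2 fold change of HIF2α AKO against WT, with its 95% interval from edgeR, for the 4 most abundant collagens of each class, in cold (circles) and at TN (squares). Every interval includes 0, and the estimates lie between -0.46 and 0.36.

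The 3 collagens with the lowest p in cold were Col28a1, Col27a1 and Col13a1. Col28a1, a collagen of peripheral nerve, measured 8.41, 6.41 and 5.67 CPM in cold WT and 4.07, 4.91 and 5.93 CPM in cold HIF2α AKO (log2 fold change -0.46, SE 0.20; unadjusted p = 0.042, adjusted p = 1.00). Col27a1 had 0.28 (SE 0.13; unadjusted p = 0.051) and Col13a1, a transmembrane collagen, had 0.44 (SE 0.20; unadjusted p = 0.052). All of these overlapped between genotypes. The study set a p below 0.15 and a log2 fold change beyond 0.2 either way, without saying whether p was adjusted. Applied to the unadjusted edgeR p-values, these thresholds took in 5 collagens in cold (8.98% of all genes), 6 at TN (8.63%) and 6 for the interaction (8.81%). In cold, Col13a1 and Col27a1 were higher (4.74% of all genes were) and Col1a1, Col18a1 and Col28a1 lower (4.24% of all genes were) in cold HIF2α AKO.

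At TN the lowest p-values belonged to Col9a2, Col17a1 and Col4a6, with log2 fold changes of -1.22, -1.66 and -2.11 and unadjusted p-values of 0.010, 0.014 and 0.018 (adjusted p = 1.00 for each). Col17a1, the transmembrane collagen of epithelial hemidesmosomes, measured 1.55, 2.02 and 9.48 CPM in TN WT and 1.44, 1.19 and 1.48 CPM in TN HIF2α AKO. The values of Col17a1 and Col4a6 turned on the third TN WT library, which carried the epithelial markers. Without it the log2 fold changes were -0.38 and -0.21.

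The interaction of genotype and temperature, which tests whether cold acts differently in the genotypes, gave 0 collagens at the adjusted limit by edgeR, DESeq2 and limma-voom (0% of all genes) and 0 at an unadjusted p under 0.05 (2.14% of all genes). The lowest p-values were those of Col18a1 (-0.82, SE 0.37, unadjusted p = 0.051), Col17a1 (1.67, SE 0.81, unadjusted p = 0.063) and Col8a1 (0.84, SE 0.42, unadjusted p = 0.071), all with an adjusted p of 1.00. Without the third TN WT library the last 2 were 0.39 and 0.38, and without the third cold WT library Col18a1 was -0.35. For Col1a1 and Col3a1 the interaction was -0.30 and 0.08, with 95% intervals from -1.02 to 0.43 and from -0.53 to 0.70. Of the tested synthesis and receptor genes, 0 were called between genotypes in cold or at TN by edgeR (0.00653% of all genes in each). At an unadjusted p under 0.05 by edgeR, 1 differed in cold and 1 at TN (2.95% and 2.91% of all genes). These were the receptors Itga1 in cold and Itga10 at TN, named because the counts were 1. P4ha1, a prolyl 4-hydroxylase subunit and a known HIF target, had log2 fold changes of 0.22 in cold and 0.18 at TN (SE 0.13 in both; unadjusted p = 0.12 and 0.18, adjusted p = 1.00).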

How the data were processed

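The deposited files hold whole read counts per gene without normalization, which the authors made by trimming with Trim Galore 0.4.4, aligning with STAR 2.6.1d to GRCm38 and counting with HTSeq 0.13.5; versions are from the submitters' processing notes. Tallies of reads outside genes, 21.9 to 27.0% of the reads listed, were left out. Groups were taken from the labels. Genes were kept by filterByExpr (minimum count 10, minimum total 15), scaled by TMM and fitted in edgeR 4.0.16 (R 4.3.3) by a quasi-likelihood model of 4 groups, with Benjamini-Hochberg adjustment over 15306 genes and a biological coefficient of variation of 0.202. SEs were derived from the F statistic. Lengths and positions came from GENCODE vM21, and promoters from RefSeq. The scripts were tested on simulated data. The collagens, lists and rules were chosen with earlier results of these data known. Named were the 4 most abundant collagens of each class, those called in a contrast (up to 5 each way) or else the 3 with the lowest p, partner chains, and called genes of the synthesis and receptor lists. Other genes were named after their values were seen. Alternatives were other scalings, filters, tools (DESeq2 1.42.0, limma 3.58.1) and sample sets. No pair of libraries in a group agreed within sampling noise.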

Additional observations from a re-analysis of the deposited data

Results flagged for a closer look

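The genotype difference went in opposite ways at the temperatures for 3 collagens, in that every HIF2α AKO library lay on one side of the WT mean in cold and on the other at TN. This description was searched among the tested collagens only. The share of all genes that met it was not counted, so the count is not read as a trait of collagens. For Col18a1, HIF2α AKO libraries were below the cold WT mean of 149 CPM and above the TN WT mean of 133 CPM, and the interaction was -0.82 on the log2 scale (unadjusted p = 0.051, adjusted p = 1.00). The cold WT mean rests on a library of 231 CPM beside 107 and 109 CPM. For Col13a1 the interaction was 0.56 (unadjusted p = 0.075, adjusted p = 1.00). Col8a1 met the same description, with an interaction of 0.84 (unadjusted p = 0.071, adjusted p = 1.00), and its cold difference was likewise opposite in WT and HIF2α AKO libraries. Its TN WT mean rests on a library of 10.5 CPM beside 5.88 and 3.91 CPM. None of these interactions passed the adjusted limit.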

How the results depend on the processing

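Alternatives were run for the collagens called in a contrast or, where there was none, for the 3 with the lowest p, and 0 of these values changed direction. Other named genes were not recomputed. Col16a1 in both genotypes, Col3a1, Col4a5 and Col5a2 in WT and Col27a1 in HIF2α AKO mice kept their call under every alternative in which they were tested. Col10a1 did too, but passed the filter through its cold libraries alone. The 9 calls in cold WT became 20 at an unadjusted p under 0.05, 25 at p under 0.15 and a log2 fold change beyond 0.2, 15 with DESeq2 on 12 libraries and 16 with voom. The 9 calls in cold HIF2α AKO became 15, 24, 14 with edgeR on the 6 libraries compared, 16 with DESeq2 on these, and 4 without the 3 libraries with muscle or epithelial markers, an alternative added after seeing the data. Between genotypes the same looser limits gave 1 and 5 collagens in cold (2.95% and 8.98% of all genes), 3 and 6 at TN (2.91% and 8.63%) and 0 and 6 for the interaction (2.14% and 8.81%). Leaving out 1 library gave 6 to 11 calls in cold WT, the fewest without the third cold WT library, and 5 to 12 in cold HIF2α AKO, the fewest without the first cold HIF2α AKO library. By edgeR, Col1a2 in WT lost its call without replicate 1 or 3 of cold WT or replicate 1 or 2 of TN WT (-0.86 to -0.64, adjusted p up to 0.078), and on the 6 libraries compared (-0.80, adjusted p = 0.058). Col1a1 in WT did so without replicate 1 or 2 of TN WT (-0.94 and -0.95, adjusted p = 0.052 for both), and Col3a1 in HIF2α AKO mice without the first cold HIF2α AKO library (-0.76, adjusted p = 0.060). Col14a1 in HIF2α AKO mice lost its call without that library or the first TN HIF2α AKO library (-0.79 and -0.69). Col5a2 and Col6a6 in HIF2α AKO mice and Col22a1 in WT each did so under more than 10 alternatives. Leaving out 1 library moved the fibrillar median between -0.46 and -0.21 in cold WT, between -0.39 and -0.21 in cold HIF2α AKO, and between -0.22 and 0.015 for genotype in cold. Replicate numbers are shared between groups but did not pair the samples (5 of 18 pairs correlated above 0.1), and with the replicate block 10 and 7 collagens were called in cold WT and HIF2α AKO. The cause of these shifts was not tested. For the other tools, sample sets and the replicate block, the share of all genes called was not counted. A general change in the number of calls therefore cannot be told apart from a change in the collagens.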
